A study of Arabidopsis thaliana with 12 samples.

Results

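Leaves of the scion, the upper part of a grafted inflorescence stem, were compared with leaves of the rootstock, the lower part that keeps the roots. The samples were chosen by their tissue label alone, Scion Leaf with 3 arrays and Rootstock Leaf with 3 arrays, which makes 6 of the 12 arrays of the series. The other 6 arrays hold flower buds of scions and rootstocks. All plants were Arabidopsis thaliana of the accession Col-0, grown at 22 °C with 16 h of light and 8 h of dark. The methods describe a homograft, in which the young stem was cut to a wedge and each scion was set back on its own plant, so that both groups share 1 genotype and both come from wounded stems. The leaves had newly emerged on side branches after grafting, and the grafts with the best scion growth had been selected. Leaves of ungrafted stems were not analysed here, and a higher position on the stem and the place above the graft junction cannot be told apart. Per the methods the replicates were independent, though how the grafted plants make up each array is not stated.

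A stem graft severs xylem and phloem, and water, sugars, hormones and RNA reach the scion again only once callus and new vascular strands have bridged the wound. Leaves on a flowering stem grow beside meristems that make flowers. Their cells use the photosynthetic genes of other leaves, while the floral MADS box genes, which set the identity of sepals, petals, stamens and carpels, are mainly known from the flower. Defence genes under salicylic acid, jasmonate and ethylene, and dehydration genes under abscisic acid, are known to respond to wounds and to water shortage.

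The values are RMA signals on a log2 scale, and each probe set was centred to a median of 0 across all 12 arrays, so they give differences and no expression levels. A log2 difference here is always scion minus rootstock, and a difference of 1 is a 2-fold change. Among the 6 leaf arrays the replicate number weighed more than the graft. A first principal component held 66% of the variance and had scores of -2.6, -69.7 and 84.1 in scion leaves 1, 2 and 3 and of -26.6, -49 and 63.7 in rootstock leaves 1, 2 and 3. The second, with 14.3%, separated all scion leaves, at 26.1, 31.1 and 21.2, from all rootstock leaves, at -25.9, -27.6 and -24.9. Deviations from the group means correlated between leaf arrays that share a number, at 0.342, 0.714 and 0.816 for numbers 1, 2 and 3. Among arrays of unlike number, scion leaf 2 and rootstock leaf 1 correlated at 0.396, above the pair of number 1, and the others were between -0.788 and -0.0166. The number was taken to pair the leaf arrays because each of its 3 correlations was positive, with pair 1 the least distinct, and the calls are given without and with that number as a block.

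**Figure D1:**
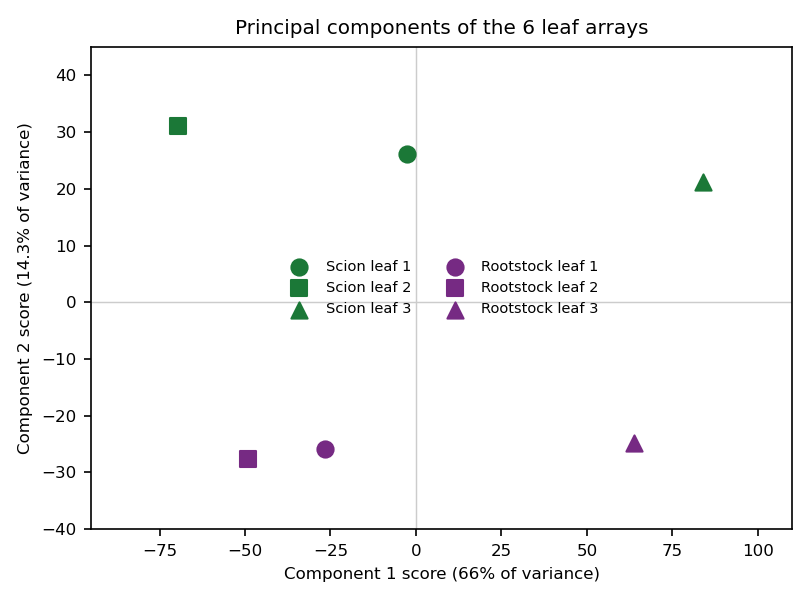
Scores of the 6 leaf arrays on the first (x axis, 66% of variance) and second (y axis, 14.3%) principal component, with scion leaves in green and rootstock leaves in purple and circle, square and triangle for replicates 1, 2 and 3. Replicate 3 of both groups lies at the right, at 84.1 in scion and 63.7 in rootstock, while scion and rootstock leaves separate along the y axis.

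The leaf label was borne out by nuclear photosynthesis genes. Of the 5 that could be named, 4 were higher in every leaf array than the mean of either bud group, and the list median stood at 221, 168 and 209% of the flower bud mean in scion leaves and at 194, 194 and 223% in rootstock leaves. RCA, which activates Rubisco, had values of 0.44, 0.23 and 0.33 in scion leaves and 0.34, 0.41 and 0.48 in rootstock leaves. The exception was LHCB4.3 (AT2G40100), an antenna protein of photosystem II, with -0.54, -1.53 and -0.56 in scion leaves and 0.22, 0.65 and 0.39 in rootstock leaves. Its log2 difference of -1.3 ± 0.25 (SE, adjusted p = 0.129, and 0.0747 with the block) did not pass the test. None of the 5 reference genes differed by more than 0.15 in either direction.

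Markers of flower tissue were not at 1 level in the 6 leaf arrays. The tapetum is the anther cell layer that feeds the pollen and makes the sporopollenin of its wall. The list of tapetum and pollen wall genes holds 12 probe sets, of which 9 take their names from tables of the study alone and had thus been selected on these samples. Its median was -2.40, -4.33 and -1.43 in scion leaves 1, 2 and 3, against -4.60, -4.37 and -4.46 in rootstock leaves and 1.43 to 2.67 in the flower bud arrays. Scion leaf 1 lay at least 2-fold above all rootstock leaves in 8 of the 12 genes and scion leaf 3 in 9, but scion leaf 2 in 0. Over all probe sets these shares were 0.607% in scion leaf 1, 0.844% in scion leaf 3 and 1.68% in scion leaf 2. The median difference was 1.51 over the list and 0.42 for the 3 members named by the platform annotation. Since 9 of the 12 were selected on these samples, the counts are not independent evidence of the direction.

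MEE48 (AT4G14080), a callase of the tapetum also known as A6, had -2.43, -5.89 and -1.37 in scion leaves and -5.99, -6.54 and -5.53 in rootstock leaves. LAP5 and LAP6, the polyketide synthases of sporopollenin, had -1.96, -4.37 and -1.03 and -1.81, -4 and -0.61 in scion leaves, against values between -4.90 and -4.12 in all rootstock leaves. CYP704B1, a fatty acid hydroxylase of the same pathway, had -2.38, -4.95 and -1.86 in scion leaves and -4.74, -5.17 and -4.95 in rootstock leaves. MS2, the fatty acyl reductase of the pollen wall, had -2.74, -5.29 and -2.13 in scion leaves and -5.09, -4.91 and -4.43 in rootstock leaves. In each of these genes scion leaves 1 and 3 were high, while scion leaf 2 lay next to the rootstock leaves. Not every member of the list was split in this way. TDF1, a MYB factor of the tapetum, had -0.59, -0.73 and -0.22 in scion leaves and -0.64, -0.83 and -0.32 in rootstock leaves. The list members AMS and SWEET8 differed by 0.42 and 0.02. Expressed against the flower bud mean, CYP704B1 reached 3.02 and 4.34% in scion leaves 1 and 3, 0.507% in scion leaf 2 and 0.435 to 0.588% in rootstock leaves. None of the 12 passed the test with or without the block.

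Genes of the pollen coat, which the tapetum deposits later, were at the rootstock level in all scion leaves. The 8 probe sets, 7 of them named only by the study, had a median of -1.68, -1.53 and -1.68 in scion leaves and of -1.4, -1.33 and -1.39 in rootstock leaves. GRP17, an oleosin of the pollen coat, had -1.69, -1.4 and -1.12 in scion leaves and -1.29, -1.55 and -1.45 in rootstock leaves. The list differences ran from -0.51 to 0.18. For some genes that are higher in flower buds the difference is also given with scion leaf 2 as the only scion leaf array. The relation of these and other genes to the tapetum signal was not tested. In these whole leaves, fewer cells of a type and less RNA per cell cannot be told apart.

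**Figure D2:**
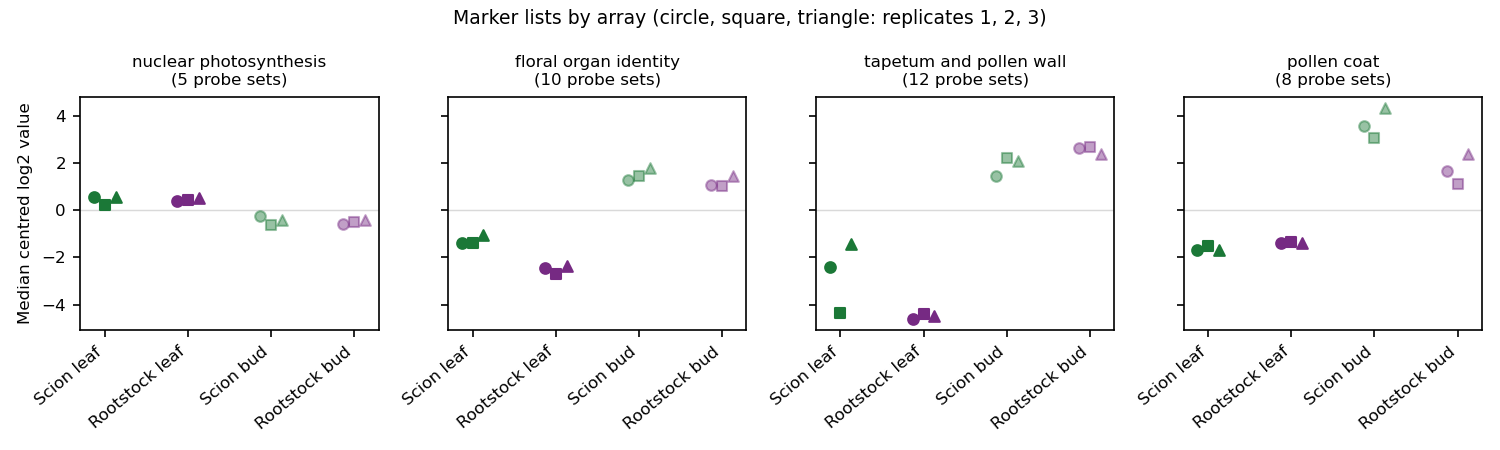
Median centred log2 value (y axis) of 4 marker lists in each array, with scion leaf, rootstock leaf, scion bud and rootstock bud along the x axis and circle, square and triangle for replicates 1, 2 and 3. Tapetum and pollen wall genes stand at -2.40 and -1.43 in scion leaves 1 and 3 but at -4.33 in scion leaf 2, next to the 3 rootstock leaves.

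Across 22746 probe sets, 6 were higher and 6 lower in scion than in rootstock leaves at an adjusted p not above 0.05 with a 2-fold or larger change, which is 0.0264% in each direction and 0.0528% in all. These 12 were fitted with limma over all 12 arrays without a block, and 1626 probe sets had an unadjusted p of at most 0.05. Their fold changes ran from 2.14 to 14.6 for increases and from 2.69 to 9.2 for decreases, and the 3 scion values did not overlap the 3 rootstock values in any of them. With the replicate number as a block within each organ the counts were 41 higher (0.18%) and 67 lower (0.295%), together 0.475%, and all 12 were called again. Fitted on the leaf arrays alone with the block, 9 rose (0.0396%) and 4 fell (0.0176%), together 0.0572% and among them 5 of the 12, and on the leaf arrays alone without the block 0 were called (859 at an unadjusted p of at most 0.05). Of the 12, 7 were called in each of the 12 fits that left out 1 array. The other 5, AP1, FAR1, AT5G57785, AT5G57790 and HMA2, had an adjusted p of 0.0441 each and were called in 1 to 3 of those fits. Without scion leaf 2 the counts were 41 higher and 14 lower, and without any 1 of the other arrays 2 to 9 higher and 5 to 15 lower. Without any test, 102 probe sets (0.448%) were at least 2-fold higher and 80 (0.352%) at least 2-fold lower with no overlap between the groups, together 0.8%.

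SEP1, SEP2 and AP1, genes of floral organ identity, rose in scion leaves. All 10 measured members of the list had a positive difference, and 5 were at least 2-fold higher without overlap, against 0.448% of all probe sets. The 4 SEPALLATA genes and AP1 were named only by the study, which selected them on these samples, so these counts are not independent evidence of the direction. The list median was 1.16, and 0.49 for the 5 members named by the platform annotation, against -0.01 over all probe sets, of which 47.8% had a positive difference. Those 5 members are UFO, SPL, JAG, SPT and ALC. None of them is a SEPALLATA gene or AP1, so their median is no check on those genes.

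SEP1 (AT5G15800), a MADS box cofactor that the B and C class proteins need to specify floral organs, had values of -0.58, -1.46 and -0.17 in scion leaves and -4.13, -5.30 and -4.37 in rootstock leaves. Every scion leaf was higher than every rootstock leaf, by 14.6-fold on average. The log2 difference was 3.87 ± 0.34 (SE, adjusted p = 0.00485, and 0.000308 with the block), the largest of all calls. Against the flower bud mean SEP1 stood at 50.2, 27.3 and 66.8% in scion leaves and at 4.28, 1.9 and 3.63% in rootstock leaves. Scion leaf 2 exceeded rootstock leaf 2 by 3.84, and with scion leaf 2 as the only scion leaf array the difference was 3.14 (adjusted p = 0.0118, the spread being taken from the other groups).

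SEP2 (AT3G02310), a close relative with an overlapping role, had -2.99, -2.69 and -2.31 in scion leaves and -4.58, -4.53 and -4.32 in rootstock leaves. Its difference was 1.81 ± 0.18 (SE, adjusted p = 0.00524, and 0.00658 with the block), and with scion leaf 2 alone it was 1.79 (adjusted p = 0.00927). SEP2 stood at 2.19, 2.7 and 3.51% of the flower bud mean in scion leaves, against 0.729, 0.754 and 0.872% in rootstock leaves. AP1 (AT1G69120), which makes a meristem floral and specifies sepals and petals, had -2.67, -3.25 and -2.74 in scion leaves and -3.97, -4.16 and -4.19 in rootstock leaves. Its difference was 1.22 ± 0.17 (SE, adjusted p = 0.0441, and 0.0145 with the block), with 0.86 and an adjusted p of 0.114 for scion leaf 2 alone.

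SEP3, the SEPALLATA gene that acts most broadly in the flower, was split among the scion leaves as the median of the tapetum list was. It had -2.55, -4.34 and -1.53 in scion leaves and -4.71, -4.87 and -4.27 in rootstock leaves, and its difference of 1.81 had an adjusted p of 0.391 (0.076 with the block). With scion leaf 2 alone that difference was 0.28. SEP4, the fourth member of the family, had 1.29, 1.29 and 1.12 in scion leaves and 0.02, 0.40 and -0.02 in rootstock leaves, a difference of 1.1 (adjusted p = 0.248, and 0.0767 with the block). ALC (AT5G67110), a basic helix-loop-helix factor of fruit opening and the platform-named member with the largest difference, had -1.21, -0.86 and -1.64 in scion leaves and -2.55, -2.90 and -2.56 in rootstock leaves. Its difference of 1.44 had an adjusted p of 0.0623 (0.0601 with the block). JAG and UFO, regulators of organ shape and of petals and stamens, differed by 0.49 and 0.19.

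Among 9 genes of flowering time and inflorescence phase, none passed the test with or without the block and 8 had a positive difference, with a list median of 0.49. SPL4, a factor that promotes flowering, had -0.59, -0.80 and -1.33 in scion leaves and -2.84, -1.42 and -2.36 in rootstock leaves, a difference of 1.3 (adjusted p = 0.237, and 0.0858 with the block). AGL20, also known as SOC1, an integrator of flowering signals, had 1.18, 1.59 and 0.56 in scion leaves and 0.64, 1.14 and 0.88 in rootstock leaves, which overlap. AT2G42940, the AT-hook protein AHL16 that is known from the tapetum, had -1.15, -3.90 and -0.28 in scion leaves and -4.35, -4 and -3.69 in rootstock leaves, the same split between scion leaf 2 and the other scion leaves as in the tapetum list.

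**Figure D3:**
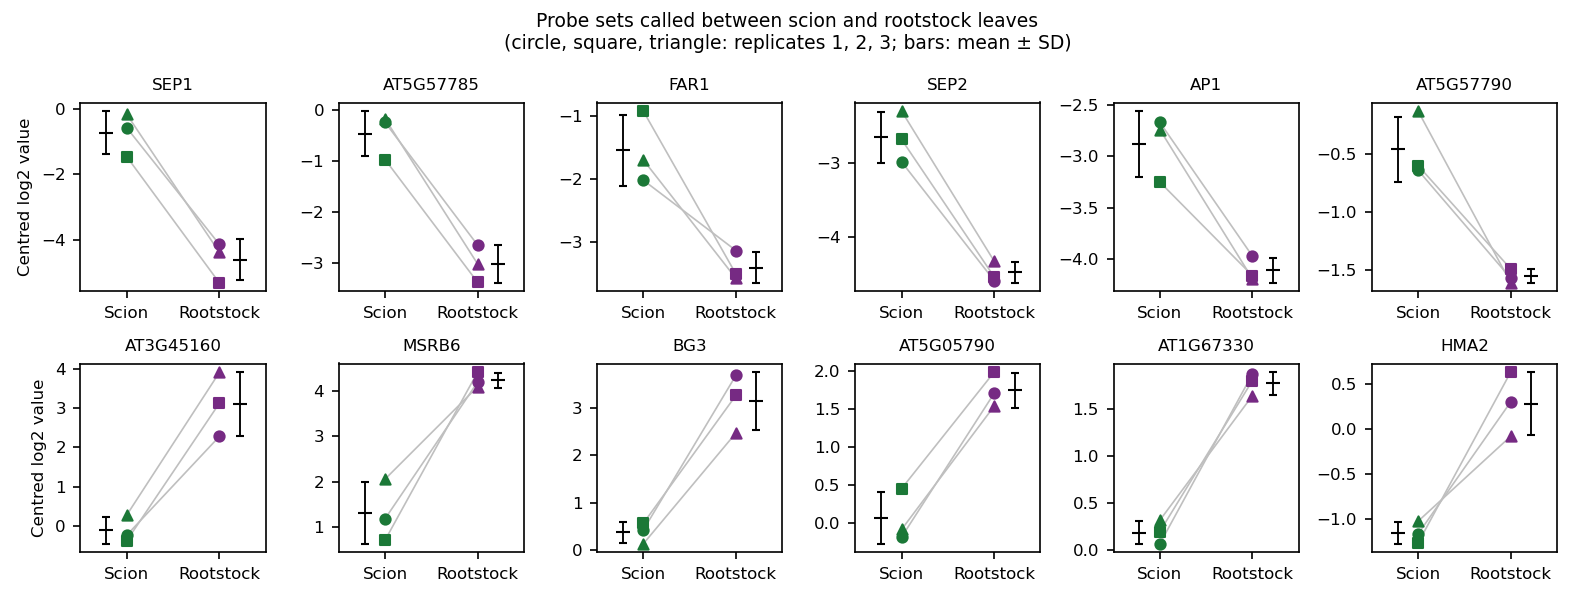
Centred log2 value (y axis) of the 6 probe sets that rose (top) and the 6 that fell (bottom) in scion leaves, with scion at the left of each panel and rootstock at the right. Lines join arrays of the same replicate number, and the bars beside the points are the mean and SD of 3 arrays. In no panel do the scion and rootstock values overlap.

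The other increases were FAR1 and a pair of neighbouring genes on chromosome 5. FAR1 (AT5G22500), which makes the primary fatty alcohols of suberin, the barrier polymer of wounds and roots, had -2.02, -0.93 and -1.70 in scion leaves and -3.13, -3.50 and -3.57 in rootstock leaves. Its difference was 1.85 ± 0.25 (SE, adjusted p = 0.0441, and 0.0267 with the block), and it was highest in scion leaf 2. AT5G57785, which the study's table lists under the response to sucrose, had -0.24, -0.97 and -0.17 in scion leaves and -2.65, -3.38 and -3.02 in rootstock leaves, a difference of 2.56 ± 0.35 (SE, adjusted p = 0.0441, and 0.0101 with the block). AT5G57790, of unknown function, differed by 1.1 ± 0.15 (SE, adjusted p = 0.0441, and 0.029 with the block). Of the 7 genes of suberin, cutin and wax that could be named, FAR1 was the only one called without the block or with it, 6 were higher, and the list median was 0.49. PEL3 and KCS2, acyl transfer and chain elongation enzymes of cutin and suberin, differed by 1.26 and 1.1 (adjusted p = 0.583 and 0.610, and 0.164 and 0.215 with the block).

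Decreases were led by AT3G45160, which the study lists under the glucosinolate biosynthetic process, with -0.22, -0.36 and 0.29 in scion leaves and 2.28, 3.12 and 3.90 in rootstock leaves. All scion leaves lay at the flower bud level, at 87.9, 79.6 and 125% of its mean, and rootstock leaves at 497, 891 and 1530%. The difference was -3.20 ± 0.33 (SE, adjusted p = 0.00524, and 0.00154 with the block), a 9.2-fold decrease. MSRB6 (AT4G04840), a methionine sulfoxide reductase that repairs oxidized methionine in proteins, had 1.19, 0.72 and 2.06 in scion leaves and 4.19, 4.41 and 4.09 in rootstock leaves. It fell by 2.91 ± 0.30 on the log2 scale (SE, adjusted p = 0.00524, and 0.0107 with the block). Of the other 4 measured reductases none passed the test, with differences of 0.11 for MSRB3, 0.97 for MSRB5, -1.02 for MSRB9 and -0.31 for MSRA5.

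BG3 (AT3G57240), a beta-1,3-glucanase known as a target of the defence response, had 0.43, 0.57 and 0.14 in scion leaves and 3.68, 3.26 and 2.47 in rootstock leaves. The scion values lay close together and far below the rootstock, with a difference of -2.76 ± 0.25 (SE, adjusted p = 0.00485, and 0.00154 with the block). AT1G67330 had 0.07, 0.20 and 0.32 in scion leaves and 1.87, 1.80 and 1.64 in rootstock leaves, the tightest groups of all calls, and fell by 1.58 ± 0.15 on the log2 scale (SE, adjusted p = 0.00524, and 0.0107 with the block). The MYB family gene AT5G05790 had -0.19, 0.45 and -0.09 in scion leaves and 1.71, 1.99 and 1.54 in rootstock leaves (difference -1.69 ± 0.18, SE, adjusted p = 0.00758, and 0.00658 with the block). HMA2 (AT4G30110), a zinc-exporting ATPase that loads zinc into the xylem, had -1.16, -1.26 and -1.02 in scion leaves and 0.30, 0.63 and -0.08 in rootstock leaves, and fell by 1.43 ± 0.19 on the log2 scale (SE, adjusted p = 0.0441, and 0.0309 with the block). Of 10 genes of metal homeostasis HMA2 was the only one called, 6 were lower, and the list median was -0.12. CSD2, the copper/zinc superoxide dismutase of the plastid, had -0.85, -0.97 and -0.24 in scion leaves and 0.97, -0.21 and 0.11 in rootstock leaves, with a difference of -0.98 (adjusted p = 0.519, and 0.225 with the block).

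The block brought out genes whose values moved strongly from replicate to replicate but kept a similar distance between scion and rootstock. Of the 108 blocked calls, 57 also differed between the replicate pairs in a limma F test of the replicate number within leaves (adjusted p of at most 0.05), against 15.3% of all probe sets, and of the 12 calls without the block 1 did. A block lowers the spread most where replicates differ, and both tests used these leaf values. The share of 57 was therefore partly fixed in advance and is no result about the genes. Of the 108, 16 of 41 increases and 41 of 67 decreases have a single gene by the platform annotation, 21 in each direction were named only by the study, and the rest had several genes or no name. AT14A (AT3G28290), an integrin-related protein, had 3.1, 4.32 and 2.17 in scion leaves and 0.45, 2.03 and -0.05 in rootstock leaves. The pairs differed by 2.65, 2.29 and 2.23, and the adjusted p was 0.235 without and 0.000982 with the block. Its probe set can also bind a near-identical copy of the gene, so its value is uncertain. IGMT5, a methyltransferase related to those of indole glucosinolates, had -0.12, 0.26 and -0.36 in scion leaves and -2.64, -1.63 and -3.26 in rootstock leaves (difference 2.43, adjusted p = 0.052, and 0.0101 with the block). AT4G33150, the lysine-degrading enzyme LKR/SDH, had 1.31, 2.28 and 0.60 in scion leaves and -1.41, -0.75 and -2.16 in rootstock leaves (difference 2.83, adjusted p = 0.0812, and 0.0105 with the block).

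PDF1, HMGA, MIOX2, CHAT and KCS19 also rose in the blocked fit. PDF1, the protodermal factor of the outer cell layer, had -1.43, -3.72 and -0.92 in scion leaves and -2.93, -5.96 and -3.27 in rootstock leaves (difference 2.03, adjusted p = 0.617, and 0.00658 with the block). Against the flower bud mean it stood at 15.7, 3.2 and 22.2% in scion leaves 1, 2 and 3. With scion leaf 2 alone its difference was 0.34. HMGA, a chromatin protein of dividing cells, differed by 1.82 (adjusted p = 0.159, and 0.00668 with the block). It stood at 10.2, 5.41 and 16.2% of the flower bud mean in scion leaves, with a difference of 0.99 for scion leaf 2 alone. MIOX2, a myo-inositol oxygenase that leads inositol to cell wall sugars, had -0.06, -0.70 and 0.52 in scion leaves and -1.64, -2.27 and -1.65 in rootstock leaves, a difference of 1.77 (adjusted p = 0.0581, and 0.00658 with the block). MIPS3, which makes inositol phosphate, fell in the blocked fit by 1.32 (adjusted p = 0.231, and 0.0136 with the block). CHAT, the acetyltransferase of the leaf volatile hexenyl acetate, had 1.66, 2.37 and 1.15 in scion leaves and -0.45, 0.61 and -0.24 in rootstock leaves (difference 1.76, adjusted p = 0.149, and 0.0101 with the block). KCS19, a fatty acid elongase, differed by 1.61 (adjusted p = 0.527, and 0.0189 with the block). Each of MIPS3, KCS19, ACD6, IOS1, RLM3, LURP1, GI, CYP704B1, MS2, MSRB5, SWEET8, HCHIB and AT3G12320 was picked once its values were known.

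Among decreases, the transporter gene AT3G23550 of the MATE family had the smallest blocked p, with 1.13, 1.31 and 0.25 in scion leaves and 3.82, 4.32 and 2.57 in rootstock leaves. The groups did not overlap, and the pair differences were -2.69, -3.02 and -2.32 (adjusted p = 0.052, and 0.000982 with the block). CKX4, a cytokinin oxidase that breaks cytokinin down, had 0.96, 0.69 and 0.52 in scion leaves and 2.61, 2.19 and 1.84 in rootstock leaves (difference -1.49, adjusted p = 0.052, and 0.0101 with the block). GAMT2, which inactivates gibberellin by methylation, had -0.53, -0.45 and -0.54 in scion leaves and 0.49, 1.03 and 1.34 in rootstock leaves (difference -1.46, adjusted p = 0.0716, and 0.018 with the block). RGL1, a DELLA repressor of gibberellin responses, had -0.71, -1.12 and -0.85 in scion leaves and -0.05, 1.13 and -0.03 in rootstock leaves, and did not pass (difference -1.24, adjusted p = 0.286, and 0.145 with the block). In the list of 11 gibberellin genes GAMT2 was the only one called with the block and the median was -0.17, with the biosynthetic GA20OX2 at -0.10 and GA3OX2 at -0.18.

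MEE3 (AT2G21650), a small MYB-like protein also known as RSM1, had the second largest decrease of the blocked fit. It had 0.96, 2.49 and -1.15 in scion leaves and 3.6, 4.83 and 3.25 in rootstock leaves, a difference of -3.12 (adjusted p = 0.231, and 0.0152 with the block). Of the 19 auxin genes, 8 were higher and 11 lower with a median of -0.03. WES1, also known as GH3.5, which conjugates auxin to amino acids, had -0.84, -0.17 and -1.01 in scion leaves and -1.97, -1.58 and -2.91 in rootstock leaves (difference 1.48, adjusted p = 0.234, and 0.0391 with the block). IAA19, a repressor of auxin responses, had -0.56, -0.20 and -0.54 in scion leaves and 0.72, 0.56 and 0.61 in rootstock leaves. Its groups were tight and did not overlap, with a difference of -1.06 (adjusted p = 0.0623, and 0.0567 with the block).

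Of 7 genes of the clock and the evening, 6 had higher values in scion leaves 1 and 3 than in the rootstock leaves of the same number. The same 6 had a positive difference, and 5 were higher in all 3 pairs, against 16% of all probe sets. The list median was 1.89, and also 1.89 for the 3 members named by the platform annotation, while 1 of the 7, JMJD5, passed the test and only with the block. The other 4 were named only by the study, which selected them on these samples, so the counts are not independent evidence of the direction. COR27, a cold-regulated repressor of the evening, had -0.71, -3.28 and 0.10 in scion leaves and -4.64, -4.52 and -4.66 in rootstock leaves. All scion leaves lay above the tight rootstock group, by 1.24 in pair 2 and by 3.93 and 4.76 in pairs 1 and 3, and the difference of 3.31 ± 0.68 (SE) had an adjusted p of 0.151 (0.053 with the block). Without scion leaf 2 its adjusted p was 0.000937.

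JMJD5 (AT3G20810), the clock-associated histone demethylase also known as JMJ30, had -1.3, -2.97 and -0.18 in scion leaves and -4.44, -4.3 and -3.72 in rootstock leaves, a difference of 2.67 (adjusted p = 0.154, and 0.0368 with the block). PRR3, a pseudo-response regulator that stabilizes TOC1, had -0.03, -0.68 and 0.87 in scion leaves and -2.26, -1.46 and -2.10 in rootstock leaves (difference 1.99, adjusted p = 0.0969, and 0.0579 with the block). AT4G33980, the COR27 homolog COR28, had -0.04, -2.14 and 0.89 in scion leaves and -3.08, -1.97 and -1.93 in rootstock leaves, and ELF4, part of the evening complex, had -0.30, -2.10 and 0.58 against -2.03, -2.64 and -1.83. In both, scion leaf 2 lay inside the rootstock range. GI, the evening gene that stabilizes the photoreceptor ZTL, differed less, by 0.61, with -0.08, -0.41 and 0.19 in scion leaves and -1.01, -0.84 and -0.25 in rootstock leaves. The remaining member, AT3G12320, had 0.26, 0.72 and -0.26 in scion leaves and 0.7, 0.34 and 0.44 in rootstock leaves, with scion leaves 1 and 3 below all rootstock leaves (difference -0.25, adjusted p = 0.976, and 0.791 with the block). Against the flower bud mean the list median stood at 74.5, 18.5 and 118% in scion leaves 1, 2 and 3 and between 15.9 and 20.7% in rootstock leaves. Flower buds stood near the level of scion leaves 1 and 3, the arrays that also held tapetum transcripts, and the part of flower tissue in this result was not tested.

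Genes of dehydration and abscisic acid were mixed. Of 27 measured members 22 had a positive difference (47.8% of all probe sets) and 13 were higher in all 3 pairs (16% of all probe sets), with a median of 0.34. None passed the test, and 3 passed with the block, where 0.18% of all probe sets were called higher. Of the 27, 19 were named only by the study, which selected them on these samples, so these counts are not independent evidence of the direction. HIS1-3, a linker histone of drought, had 1.69, 2.6 and 0.04 in scion leaves and -1.33, -0.04 and -3.43 in rootstock leaves. The pairs differed by 3.02, 2.64 and 3.47 (difference 3.04, adjusted p = 0.443, and 0.0391 with the block). LEA7, a late embryogenesis abundant protein, had 1.01, 2.06 and -0.06 in scion leaves and -1.85, -2.03 and -2.03 in rootstock leaves (difference 2.98, adjusted p = 0.124, and 0.0475 with the block). AT3G02480, which the study lists as related to abscisic acid responses, had 1.93, 4.06 and 0.30 in scion leaves and -0.30, -1.03 and -1.74 in rootstock leaves, and did not pass (difference 3.12, adjusted p = 0.325, and 0.0832 with the block). In each of these 3 genes scion leaf 2 was the highest scion leaf, whereas it was the lowest for 11 of the 12 tapetum genes (the exception is SWEET8) and 6 of the 7 clock genes. How often it was highest or lowest over all probe sets was not counted. Most of the tapetum and clock genes were named only by the study, so no conclusion is drawn from this contrast.

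Other members of the list had smaller differences or overlapping groups. RAB18, a dehydrin, had 0.31, 1.32 and -0.04 in scion leaves and -0.54, 0.04 and 0.09 in rootstock leaves (difference 0.67, adjusted p = 0.934, and 0.619 with the block). RD20, a caleosin, had 1.1, 1.35 and -0.21 in scion leaves and 0.88, 1.05 and -0.32 in rootstock leaves, and COR47 had 1.56, 2.99 and -0.11 against 1.73, 1.63 and 0.11. ABI1 and ABI2, phosphatases that abscisic acid induces, differed by 0.23 and 0.17. HB-7, a homeobox gene of drought, had 1.15, 1.37 and -0.65 in scion leaves and 0.08, -0.08 and -2.52 in rootstock leaves (difference 1.46, adjusted p = 0.804, and 0.164 with the block).

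Lipid transfer proteins, which carry lipids to the cuticle and cell wall, had a positive difference in all 5 measured members, with a median of 1.63. LTP4 (AT5G59310) had -0.25, 1.35 and -0.91 in scion leaves and -2.42, -2.70 and -4.24 in rootstock leaves, and rose in the blocked fit (difference 3.19, adjusted p = 0.231, and 0.0136 with the block). LTP2 had -0.45, 1.56 and -2.21 in scion leaves and -2.28, -2.40 and -3.87 in rootstock leaves (difference 2.49, adjusted p = 0.443, and 0.068 with the block). Both were highest in scion leaf 2. LTP6 had -2.40, -4.04 and -1.92 in scion leaves and -3.62, -5 and -4.63 in rootstock leaves, a difference of 1.63 (adjusted p = 0.391, and 0.0669 with the block). With scion leaf 2 alone that difference was 0.38. Of the 5, 3 were named only by the study.

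**Figure D4:**
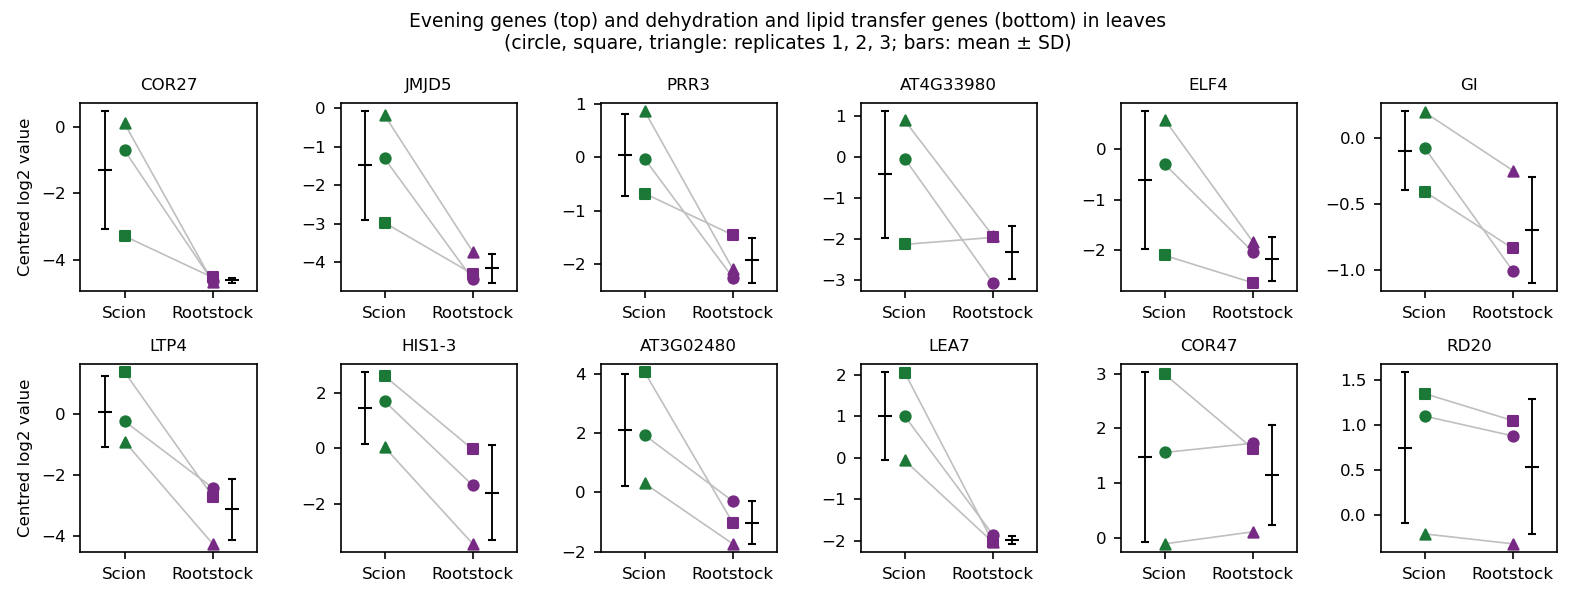
Centred log2 value (y axis) of 6 evening genes (top) and of 6 dehydration and lipid transfer genes (bottom) in the leaf arrays, scion at the left and rootstock at the right of each panel, with lines between arrays of the same replicate number and bars for the mean and SD of 3 arrays. Scion leaf 2 (squares) is the lowest scion value of the evening genes, at -3.28 for COR27, and the highest of the dehydration genes, at 4.06 for AT3G02480.

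PR5, CRK4 and AT5G03350, genes of the salicylic acid response, fell in the blocked fit, and replicate 3 was low in both groups. Of 13 measured genes of salicylic acid and pathogenesis-related proteins 11 had a negative difference and 7 were lower in all 3 pairs, against 18.8% of all probe sets. The list median was -0.67 (-0.31 for the 5 named by the platform annotation), none passed the test and 3 fell in the blocked fit, where 0.295% of all probe sets were called lower. Of the 13, 8 were named only by the study. HCHIB, a basic chitinase, went the other way in all 3 pairs, with 2.1, 2.22 and 0.32 in scion leaves and 1.02, 0.33 and -0.34 in rootstock leaves (difference 1.21, adjusted p = 0.651, and 0.106 with the block). The list medians were 2.72, 3.12 and 0.01 in scion leaves 1, 2 and 3 and 3.93, 3.37 and 1.4 in rootstock leaves. AT5G03350, a legume lectin known to respond to salicylic acid, had -0.52, -1.46 and -1.96 in scion leaves and 2.82, 1.18 and 0.14 in rootstock leaves (difference -2.69, adjusted p = 0.18, and 0.00687 with the block). It was the only one of the 3 whose groups did not overlap.

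PR5, a thaumatin-like protein and classical marker of the salicylic acid response, had 3.17, 4.22 and -0.71 in scion leaves and 6.18, 5.42 and 2.65 in rootstock leaves. Each scion leaf lay below its partner, by 3.01, 1.21 and 3.36, but scion leaves 1 and 2 lay above rootstock leaf 3 (difference -2.53, adjusted p = 0.741, and 0.0402 with the block). CRK4, a receptor-like kinase with a cysteine-rich outer domain, had 3.95, 4.3 and 1.29 in scion leaves and 6.17, 5.91 and 2.53 in rootstock leaves (difference -1.69, adjusted p = 0.812, and 0.0267 with the block). PR4 and PCC1 differed by -2.07 and -1.93 and did not pass with or without the block. Neither of 2 further members passed. WRKY53, a transcription factor, had 2.72, 2.97 and -0.51 in scion leaves and 2.75, 3.03 and 1.4 in rootstock leaves, and PBS3, an enzyme of salicylic acid synthesis, had 3.92, 4.26 and 0.35 in scion leaves and 3.97, 3.37 and 0.33 in rootstock leaves. LURP1, an oomycete response gene, differed by -1.46 (adjusted p = 0.93, and 0.35 with the block). In the blocked fit ACD6, an ankyrin protein that promotes salicylic acid defence, fell by 1.71 (adjusted p = 0.523, and 0.0468 with the block), the kinase gene IOS1 by 1.47 (0.549, and 0.0136 with the block) and the resistance gene RLM3 by 1.08 (0.0692, and 0.0361 with the block). The ankyrin gene AT4G03450 fell by 1.57 (adjusted p = 0.737, and 0.0107 with the block).

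Of the jasmonate and ethylene genes, ORA59, PDF1.2 and RAV1 fell in the blocked fit. ORA59, the ethylene response factor that joins both hormones, had 0.87, 2.04 and -0.06 in scion leaves and 3.1, 3.85 and 1.66 in rootstock leaves (difference -1.92, adjusted p = 0.437, and 0.0269 with the block). PDF1.2, the plant defensin it activates, had 2.17, 3.87 and -0.19 in scion leaves and 5.08, 4.89 and 2.94 in rootstock leaves (difference -2.36, adjusted p = 0.563, and 0.044 with the block). PDF1.2b, whose probe set can also bind its relatives, differed by -1.74 (adjusted p = 0.634, and 0.0997 with the block). Over all 9 defensins 4 were higher and 5 lower with a median of -0.08, and LCR69 rose in the blocked fit by 1.07 (adjusted p = 0.893, and 0.0475 with the block).

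Of 18 ethylene response factors and ethylene genes 16 were lower and 13 lower in all 3 pairs (18.8% of all probe sets), with a median of -0.62, and 14 of the 18 were named only by the study, which selected them on these samples. None passed the test, and ORA59 and RAV1 fell in the blocked fit, where 0.295% of all probe sets were called lower. RAV1, a repressor of growth, had 1.29, 2.03 and 0.02 in scion leaves and 2.53, 2.84 and 1.63 in rootstock leaves (difference -1.22, adjusted p = 0.613, and 0.0368 with the block). ERF6 and the family members AT4G32800 and AT5G07580 were at least 2-fold lower without overlap, with differences of -1.24, -1.51 and -1.17 and adjusted p-values of 0.362, 0.113 and 0.118 (0.0538, 0.0845 and 0.0509 with the block). ERF-1 and ERF2 differed by -1.1 and -1.53 (adjusted p = 0.846 and 0.809, and 0.219 and 0.182 with the block), and the receptor ERS1 and the regulator EIN3 by -0.29 and -0.19.

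Of 10 jasmonate and wound genes 8 were lower with a median of -0.60, and none passed the test with or without the block. AOS, the first enzyme of the jasmonate branch, had 3.23, 4.01 and 0.66 in scion leaves and 3.66, 5.28 and 2.79 in rootstock leaves (difference -1.28, adjusted p = 0.864, and 0.09 with the block). TAT3, a wound-induced transaminase, differed by -1.36 (adjusted p = 0.94, and 0.0867 with the block), which was 0.37 without scion leaf 3. THI2.1 (AT1G72260), a thionin of jasmonate defence and the platform-named member, went the other way with -1.62, -0.15 and -5.19 in scion leaves and -4.87, -4.52 and -5.28 in rootstock leaves. Scion leaves 1 and 2 were high and scion leaf 3 was at the rootstock level, and the difference of 2.58 had an adjusted p of 0.611 (0.159 with the block).

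**Figure D5:**
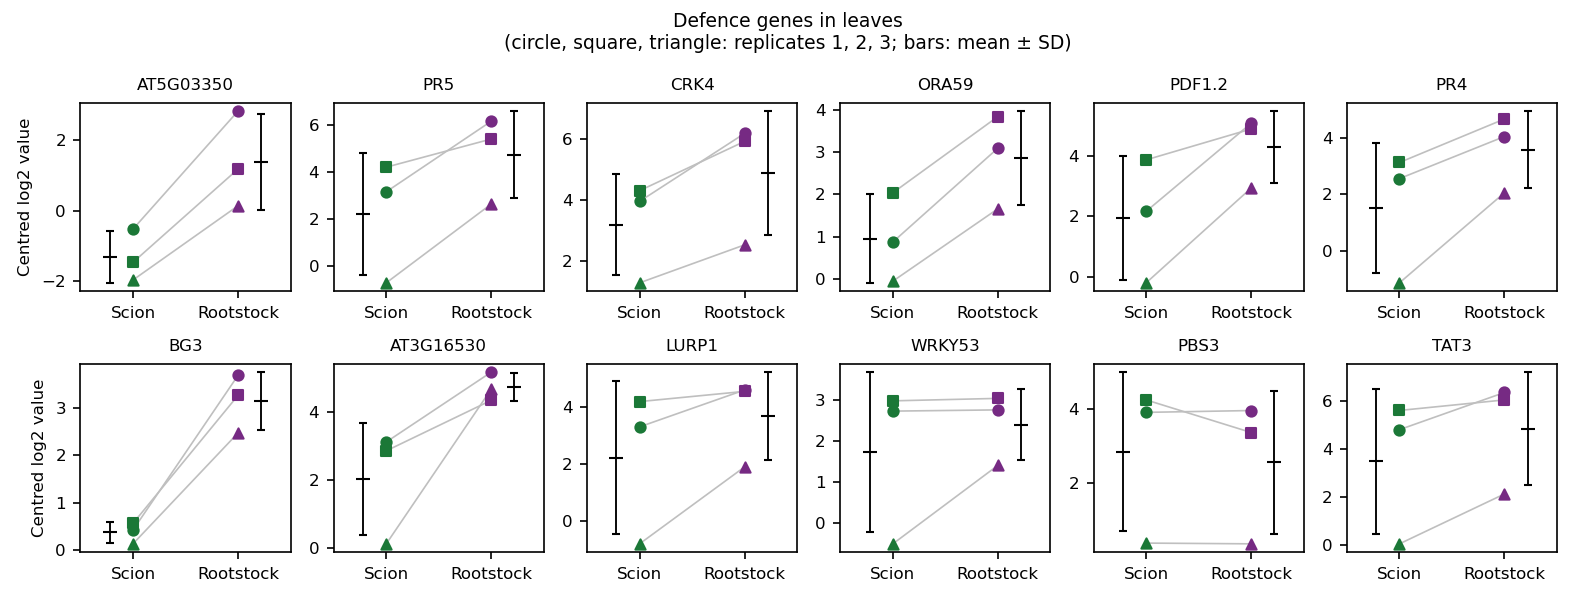
Centred log2 value (y axis) of 12 defence genes in the leaf arrays, scion at the left and rootstock at the right of each panel, with lines between arrays of the same replicate number and bars for the mean and SD of 3 arrays. Replicate 3 (triangles) is low in both groups for most genes, at -0.71 in scion and 2.65 in rootstock for PR5. All lines rise towards rootstock for every gene shown but PBS3, though for WRKY53 pairs 1 and 2 differ by only -0.02 and -0.06. The panels are a selection, so their common direction is no result about defence genes. HCHIB, THI2.1 and LCR69, not shown, were higher in scion leaves in every pair. Over all probe sets 18.8% were lower in every pair.

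Many probe sets differed between replicates. In the limma F test of the replicate number, on the leaf arrays alone and without a fold threshold, 3473 probe sets (15.3%) differed between the leaf pairs. Of these, 1264 were at least 2-fold lower in pair 3 than in the others and 959 at least 2-fold higher. The calls between scion and rootstock need a 2-fold change and come from another test, so the counts are not on 1 scale. CHI (AT2G43570), a chitinase picked, like CML41 and AT5G48490, for its difference between pairs, had 4.59, 5.35 and -0.09 in scion leaves and 5.42, 4.79 and 0.09 in rootstock leaves, and CML41, a calmodulin-like protein, had 4.06, 5.25 and -0.11 against 5.49, 3.28 and -1.15. Both graft parts of pair 3 were low. Pair 2 was low in another set, led by the lipid transfer protein family member AT5G48490 with 1.54, -3.04 and 1.85 in scion leaves and 0.84, -4.45 and 1.91 in rootstock leaves. Among the 67 decreases of the blocked fit, rootstock leaf 3 was the lowest rootstock leaf in 47 of 67, and in 34.2% over all probe sets.

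Of the transcription factors that the study names for leaves, several had no overlap between the groups but did not pass either fit. The homeobox gene HB21 had 1.18, 1.60 and 0.36 in scion leaves and -1.11, -1.45 and -1.31 in rootstock leaves (difference 2.34, adjusted p = 0.216, and 0.0669 with the block). HB53 and the basic helix-loop-helix genes FBH3 and BHLH32 differed by 1.37, 1.25 and 1.12 (adjusted p = 0.417, 0.143 and 0.242, and 0.182, 0.0756 and 0.0702 with the block). The zinc finger homeobox gene HB31 rose in the blocked fit by 1.2 (adjusted p = 0.611, and 0.0148 with the block), and the MYB family gene AT5G06800 fell by 1.17 (adjusted p = 0.194, and 0.0189 with the block). HB31 stood at 14.9, 7.59 and 27.5% of the flower bud mean in scion leaves, with a difference of 0.26 for scion leaf 2 alone. The study names 33 measured probe sets for leaves in all, among them many that are not transcription factors, such as HIS1-3, LTP4 and AT3G45160. Of these 33, 20 were higher and 13 lower, and 4 were called without and 14 with the block. The study had chosen them on these samples, so their shares say nothing of other genes.

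Several of the largest differences without overlap did not pass the test. Among them was AT1G09500, of the cinnamyl alcohol dehydrogenase family, with 3.96, 4.93 and 1.85 in scion leaves and 0.45, 1.15 and -0.56 in rootstock leaves (difference 3.23, adjusted p = 0.475, and 0.102 with the block). UPB1, a regulator of peroxidases in the root tip, had 3.57, 3.48 and 1.71 in scion leaves and 0.81, 1.09 and -0.91 in rootstock leaves (difference 2.59, adjusted p = 0.59, and 0.132 with the block). It was called only in the limma fit of the leaf arrays alone with the block (adjusted p = 0.0221). AT2G31945 and AT1G62510, the second of the lipid transfer and protease inhibitor family, differed by 2.45 and 2.26 (adjusted p = 0.549 and 0.502, and 0.16 and 0.176 with the block). AT5G62080, a protease inhibitor family gene, had -3.43, -6.27 and -2.20 in scion leaves and -6.54, -6.38 and -6.29 in rootstock leaves, the split of the tapetum list median. Among decreases, the lectin gene AT3G16530 had 3.13, 2.87 and 0.13 in scion leaves and 5.19, 4.36 and 4.69 in rootstock leaves (difference -2.70, adjusted p = 0.228, and 0.0643 with the block). AT5G44400, of the FAD-binding family, fell in the blocked fit by 2.5 (adjusted p = 0.131, and 0.0169 with the block), AT5G05960 by 1.94 (0.0623 and 0.0107) and AT5G55450 by 1.92 (0.15 and 0.0439), the last 2 both of the protease inhibitor family. AT4G24350 and AT1G22690 differed by -2.08 and -1.99 (adjusted p = 0.231 for both, and 0.0973 and 0.0842 with the block).

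Genes of mitosis and of several other processes did not pass the test. All 6 mitosis genes had a positive difference with a median of 0.50, none passed the test with or without the block, and PLE, a microtubule bundler of the division plane, differed most with 1.1 (adjusted p = 0.474, and 0.09 with the block). Their list medians were highest in replicate 3 of both groups, at -0.47 in scion and -1.28 in rootstock leaves. None of the 7 glucosinolate, 4 starvation, 5 heat shock and 5 phenylpropanoid genes on the lists passed either fit, and their medians were -0.12, 0.09, 0.14 and 0.03. The glucosinolate list does not hold AT3G45160, called without and with the block, or IGMT5, called with it. GDH1, a glutamate dehydrogenase that rises under carbon shortage, had 0.42, 0.72 and 0.00 in scion leaves and 1.14, 1.61 and 1.62 in rootstock leaves, a difference of -1.08 (adjusted p = 0.0969, and 0.0567 with the block).

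The 12 leaf calls were set against flower buds of the same graft parts. None was called in flower buds, where all 12 differed by less than 2-fold between scion and rootstock. SEP1 differed by 3.87 in leaves and 0.07 in buds, AT3G45160 by -3.20 in leaves and 0.05 in buds, BG3 by -2.76 in leaves and -0.10 in buds, and MSRB6 by -2.91 in leaves and -0.39 in buds. The test of the difference between organs reached adjusted p-values of 0.0812, 0.0812, 0.0812 and 0.091 for these genes and was passed by 0 probe sets with limma, with 1760 at an unadjusted p not above 0.05. With the block within each organ 111 probe sets passed it, 28 of them among the 108 blocked leaf calls. HIS1-3 differed by 3.04 in leaves and 4.76 in buds and LEA7 by 2.98 in leaves and 3.76 in buds, and of the 108 blocked leaf calls 76 had a bud difference of the same sign and 17 one of at least 2-fold. MIOX2 differed by 1.77 in leaves and -1.53 in buds (adjusted p of the organ difference = 0.0812).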

How the data were processed

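Leaf and flower bud RNA was hybridised to ATH1 arrays, 12 in all and 3 per group, grouped by the tissue label. The deposited log2 values came from RMA, which the authors ran in GeneSpring. Every probe set has a median of 0 over the 12 arrays, a centring that the sources used here do not describe. The number of arrays limits the precision.

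Fits used limma 3.58.1 in R 4.3.3 on 22746 probe sets (64 controls left out), with 4 group means over 12 arrays and Benjamini-Hochberg adjustment. Called means an adjusted p not above 0.05 with a 2-fold or larger change. The script was tested on simulated data. Other fits added the replicate number as a block, which pairs the leaf arrays by the correlations given above, or changed arrays, scaling, weights or thresholds.

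The platform annotation named 1 gene for 13513 probe sets, tables of the study named a further 473, and 8257 had no name. Named are all calls, up to 10 blocked calls per direction by adjusted p, genes the study names for leaves, the 10 largest single-gene differences without overlap per direction, and per list every call, up to 6 members without overlap and up to 2 others, these last only where at least 2-fold. Other named genes were picked once values were known. The members, lists and tests were chosen with earlier results of these data known. The study's own comparison columns (fold changes and p-values) were not used.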

Additional observations from a re-analysis of the deposited data

How the results depend on the processing

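The counts of calls depended on the fit and the test. Against 6 higher and 6 lower, the replicate block within each organ gave 41 and 67, array weights 115 and 111, and the leaf arrays alone 0 and 0. Quantile normalization gave 1 and 3, and single-gene probe sets 2 and 4. The methods' one-way analysis of variance with Benjamini-Hochberg adjustment gave 152 and 145 with the 2-fold leaf change. Its F test spans all 4 groups, so a probe set can pass through a difference between flower buds and leaves. Those counts are therefore not from a test of scion against rootstock leaves. Of settings chosen after seeing the data, no replicate 3 of either leaf group gave 20 and 31, and scion leaf 2 as the only scion leaf array 124 and 35, a lone array being assumed to vary like the other groups. Leaving out 1 array gave 2 to 41 higher, with 41 without scion leaf 2, 3 without scion leaf 1, rootstock leaf 1 or rootstock leaf 3, and 2 without scion bud 3 or any of the rootstock buds. It gave 5 to 15 lower, with 14 without scion leaf 2, 10 without scion leaf 3 and 15 without rootstock leaf 3. The cause was not tested. Array medians set to 0, the block over all arrays (7 and 7) and no fold threshold kept both counts within 1.5 times.

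Without overlap and at least 2-fold, 102 were higher and 80 lower. Single-gene probe sets gave 46 and 47, and a fold of at least 1.5 gave 255 and 253. Leaving out 1 leaf array gave 113 to 400 and 92 to 356, most without scion leaf 3 (400 higher) and rootstock leaf 3 (356 lower). Fewer arrays overlap less often, which holds for each array left out. Why these arrays gave the most was not tested. The difference between organs was called for 0 probe sets, for 111 with the block within organ, 467 with array weights, 18 after quantile normalization, 10 without replicate 3 of either leaf group, 51 with scion leaf 2 as the only scion leaf array, and 0 to 34 with 1 array left out, with 34 without scion leaf 2.

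Among named genes the direction reversed for AT5G07230 after quantile normalization (-0.01), for TAT3 and LURP1 without scion leaf 3 (0.37 and 0.07, with lows of -2.72 for TAT3 without rootstock leaf 3 and -2.44 for LURP1 without scion leaf 2), and with scion leaf 2 as the only scion leaf array for TAT3 (0.76), LURP1 (0.51), MSRB9 (0.36), AT3G12320 (0.22) and MS2 (-0.48). SWEET8, at 0.02, had -0.49 after quantile normalization, -0.08 with no replicate 3 of either leaf group, -0.21 with scion leaf 2 as the only scion leaf array, and -0.23 to 0.17 with 1 array left out. Of 2226 values for 106 named probe sets under these settings, 1980 kept direction and side of the threshold, 90 were no longer called and 143 became called.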
